A study of Mus musculus with 8 samples.

Results

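Interferon-response and antigen-presentation genes were followed in primary vascular smooth muscle cells from mouse aorta. The list held 39 genes that interferons induce or that serve the MHC class I pathway, and a gene was found on the array by its name in the scanner files. By this rule 35 of the 39 genes had a probe, 54 of the 41174 probes on the array. Of these, 22 genes were bright enough to be tested among 14864 genes in all. The cells came from C57BL/6 aortas and grew in DMEM with heat-inactivated fetal bovine serum. All 8 cultures received 1 µM angiotensin II (AngII), the peptide hormone that contracts arteries, so the AngII group had angiotensin alone. The AngII+CsA group had the same dose with 200 ng/ml cyclosporin A, which binds cyclophilin and blocks the phosphatase calcineurin. Each group had 4 independent cultures, and the series asked which angiotensin-regulated genes are sensitive to cyclosporin. No culture without angiotensin and none with added interferon entered the analysis, so levels here describe angiotensin-treated cells alone. The labels do not give the length of treatment, the passage number or whether a culture pooled several animals.

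Type I interferon acts through the kinases Jak1 and Tyk2 on Stat2, which with Irf9 is part of the complex ISGF3 that binds the interferon-stimulated response element (ISRE) upstream of antiviral genes. Interferon gamma acts mainly through GAS elements and raises Irf1 and the class I machinery. In that machinery the immunoproteasome subunits Psmb8, Psmb9 and Psmb10 cut proteins, Tap1 and Tap2 carry the peptides into the endoplasmic reticulum, and tapasin (Tapbp) helps load them onto class I molecules, whose light chain is B2m.

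Each array was hybridised with Cy3-labelled RNA from 1 culture. The level of a probe is log2 of its processed signal minus the 75th percentile of its array, so 0 is the signal at that percentile. Levels of different probes are not comparable, because probes bind with different strength. A probe counted as above background where at least 50% of its spots were marked well above background. Between 42.8% and 51.7% of the 43379 spots per array carried that mark, and 4 arrays per group set the precision. Both groups carry culture numbers 1 to 4 in the labels, and arrays of the same number shared a slide and a scan, so replicate number and slide cannot be told apart. As a check of the drug, Rcan1, a calcineurin inhibitor gene that calcineurin and NFAT switch on, was 4.79-fold lower with cyclosporin and lower in 4 of 4 pairs (limma with a block by replicate number, adjusted p = 0.01308; adjusted p = 0.9999 without the block). With the block and both arrays of any 1 replicate number left out, 0 genes passed, Rcan1 included.

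The stretches upstream of 4 of the genes are shown because they have, or do not have, a match to the ISRE core searched here. They are RefSeq sequences of build GRCm38.p6, 5′ to 3′, and capitals mark matches to the ISRE core, searched as GAAA, any 2 bases and GAAA again, on either strand. The Isg15 stretch is the reverse strand of chr4:156200819-156201068, B2m is the forward strand of chr2:122147437-122147686 and Ifit1 the forward strand of chr19:34640639-34640888. The last one is the forward strand of chr17:34187331-34187555, which lies between the start sites of Psmb9 and Tap1, a pair of genes that are read in opposite directions.
Isg15: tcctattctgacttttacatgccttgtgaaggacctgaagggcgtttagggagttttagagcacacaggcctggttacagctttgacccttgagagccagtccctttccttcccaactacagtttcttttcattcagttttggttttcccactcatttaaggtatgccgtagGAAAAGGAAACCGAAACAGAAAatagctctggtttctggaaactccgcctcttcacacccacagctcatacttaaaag
B2m: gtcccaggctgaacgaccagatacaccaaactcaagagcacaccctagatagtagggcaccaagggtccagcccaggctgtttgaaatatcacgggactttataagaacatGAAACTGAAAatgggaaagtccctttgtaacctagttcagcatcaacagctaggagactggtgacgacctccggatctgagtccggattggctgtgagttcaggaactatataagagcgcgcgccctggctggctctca
Ifit1: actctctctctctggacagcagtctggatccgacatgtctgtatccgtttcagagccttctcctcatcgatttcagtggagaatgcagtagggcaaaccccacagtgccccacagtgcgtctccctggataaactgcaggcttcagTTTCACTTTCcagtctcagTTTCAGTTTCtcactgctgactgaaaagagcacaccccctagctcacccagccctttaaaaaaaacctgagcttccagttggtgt
Psmb9 to Tap1: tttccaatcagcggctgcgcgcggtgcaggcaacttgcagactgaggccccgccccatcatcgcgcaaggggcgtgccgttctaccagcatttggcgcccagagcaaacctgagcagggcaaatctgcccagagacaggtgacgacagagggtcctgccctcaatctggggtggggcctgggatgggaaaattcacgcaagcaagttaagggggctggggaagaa
Isg15 had 3 matches, which overlap one another, B2m had 1 and Ifit1 had 2. The Psmb9 to Tap1 stretch had 0 matches to these letters and 0 to the GAS letters TTCNNNGAA. A match is a description of letters and not a measured binding site, and 0 matches to these letters do not show that such a site is absent.

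Windows from 250 bases before to 50 after a start site were searched in the same way for all genes in the RefSeq table. The ISRE core stood in 3.99% of 27025 genes and in 16 of the 33 listed genes in the table (48.5%). For the GAS letters the shares were 9.55% of all genes and 8 of the 33 listed genes (24.2%). Among the listed genes in the table, 8 of 19 that were tested (42.1%) and 5 of 8 that stayed at background on all arrays (62.5%) had an ISRE core match. Both kinds of listed gene therefore held the match more often than genes at large, and no test was made between them.

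Several canonical antiviral genes gave no signal above background in these cells, although the listed probes as a set stood near the array at large. Of the 54 probes, 23 were above background on all 8 arrays (42.6%, against 39% of all probes on the array) and 24 were above it on 0 arrays (44.4%, against 41.5%). By gene, 20 of 35 had a probe above background on all 8 arrays, 2 were tested with fewer arrays, 2 were above background on 1 or 2 arrays, and 11 were above it on none. Of 28760 genes with values on the array, 12410 had a probe above background on all 8 arrays. The number of all genes above it on none is not given. The 11 genes were Ifit1, Ifit2 and Ifit3, which bind viral RNA, Oas1a, Oas2, Oas3 and Oasl2 of the oligoadenylate synthetase family, the antiviral GTPases Mx1 and Mx2, Rsad2 (viperin) and Ifi44. Ifit1, for example, lay between -5.73 and -4.48 in AngII cultures and between -5.70 and -4.42 in AngII+CsA cultures, and Mx2 between -5.56 and -3.92 and between -5.58 and -4.43. The lowest signals marked above background were -4.03 to -3.03, depending on the array, so for such genes only an upper limit on the signal is known. A probe at background does not by itself show that a gene is silent. Ddx58, for example, had 1 probe above background on all 8 arrays and 3 above it on 0 arrays.

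Beside these, 4 listed genes had no probe under their present name. Irf9, the DNA-binding part of ISGF3, has 2 probes under its older name Isgf3g. One lay at -4.10, -5.96, -5.29 and -5.67 in AngII replicates 1 to 4 and at -5.51, -6.14, -5.47 and -5.82 in AngII+CsA replicates 1 to 4, and the other at -3.74, -4.26, -4.32 and -4.74 and at -5.40, -5.79, -5.11 and -5.24. Neither was above background on any array. Gbp3, a guanylate-binding protein gene found by accession under the name Gbp4, has 1 probe, and Cmpk2, found as Tyki, has 2, all above background on 0 arrays. Xaf1 matched no probe under either name.

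Stat2, which joins Irf9 in ISGF3, was above background on 2 arrays, both with cyclosporin. Its probe lay at -5.62, -5.98, -5.30 and -5.70 in AngII replicates 1 to 4 and at -5.68, -2.73, -5.43 and -2.61 in AngII+CsA replicates 1 to 4. The AngII+CsA arrays of replicates 2 and 4 thus stood apart from the other 6, and the gene missed the filter of 4 arrays and was not tested. Ifih1 (Mda5), a sensor of double-stranded RNA, was above background only on the AngII+CsA array of replicate 2, where its brighter probe lay at -3.49. Over the 4 AngII arrays that probe ranged from -4.74 to -3.57.

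**Figure D1:**
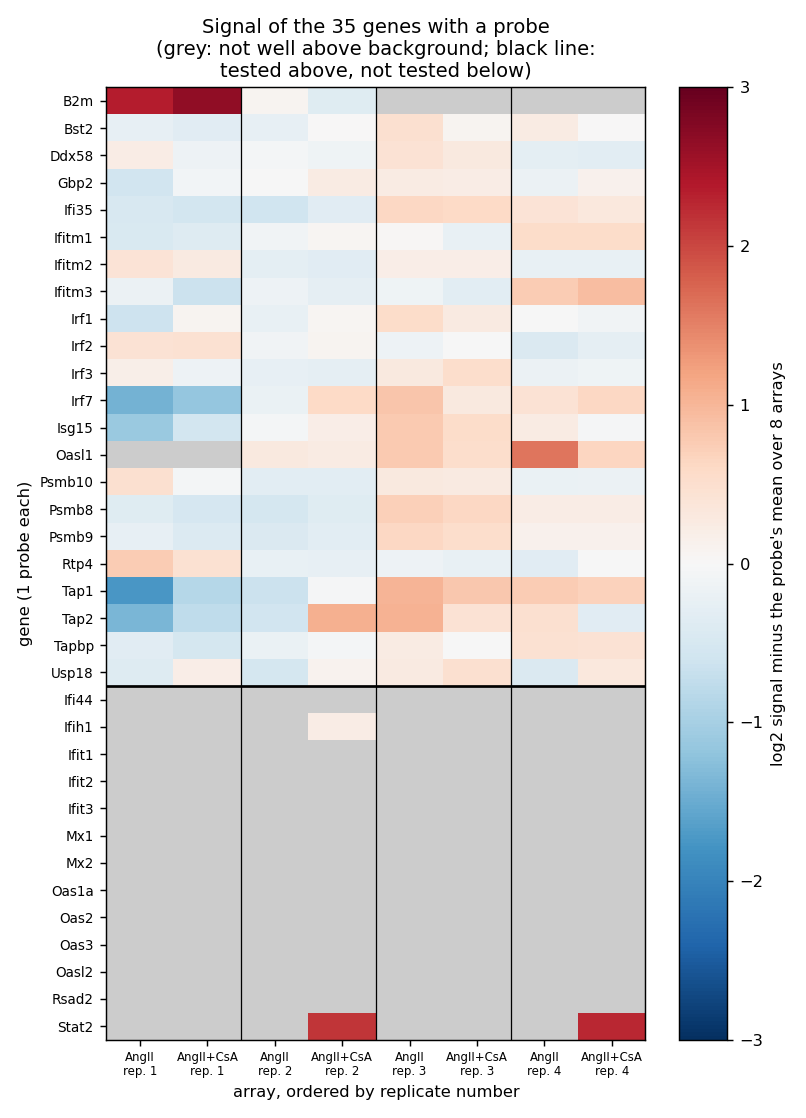
Each row is 1 probe of a gene and each column 1 array, ordered by replicate number; colour gives the log2 signal minus that probe's mean over 8 arrays, and grey marks arrays where the probe was not well above background. The 22 tested genes stand above the black line; Irf7, Isg15, Tap1 and Oasl1 were lowest in both replicate 1 arrays or at background there, and B2m was brightest in them.

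The tested genes differed mainly by replicate number. An F test over the 4 numbers, with treatment in the model, passed the adjusted p of 0.05 for 15 of 22 genes (68.2%), which is near the 68.1% of all 14864 genes that passed. Replicate number held a median of 90.9% of the variance of these genes, against 87.6% over all genes, and the median range of the number means was 0.91 log2, against 0.90. So the size of the spread was that of the array at large. The 15 genes were B2m, Ddx58, Ifi35, Ifitm1, Ifitm2, Ifitm3, Irf2, Irf7, Isg15, Oasl1, Psmb8, Psmb9, Rtp4, Tap1 and Tapbp. Bst2, Gbp2, Irf1, Irf3, Psmb10, Tap2 and Usp18 did not pass. The count fell to 9 without the AngII+CsA array of replicate 4 (40.9%, against 40.4% of all genes there), and no other array or pair of arrays moved it by over 1.5 times.

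In direction, replicate 1 stood out. Its 2 arrays were compared with the mean of the other 3 numbers, and 12 of 22 genes were lower in replicate 1 (54.5%, against 29.7% of all genes) and 4 were higher (18.2%, against 21.5%; adjusted p under 0.05 by limma). The median difference was -0.45 log2 for the tested genes and -0.15 for all genes. The 12 lower genes were Irf7, Isg15, Oasl1, Tap1, Tap2, Tapbp, Psmb8, Psmb9, Ifi35, Ifitm1, Ifitm3 and Gbp2, and the higher ones were B2m, Irf2, Ifitm2 and Rtp4. Oasl1 and B2m passed the filter only through arrays where they were bright. With only genes above background on all 8 arrays, 11 of 20 were lower and 3 higher, against 32.2% and 24.4% of all genes. Without both arrays of replicate 3, 8 of the 22 were lower and 4 higher, against 30.1% and 23.9% of all genes. The excess of lower genes was therefore small without that number. With both arrays of replicate 4 left out the counts were 6 lower and 2 higher, against 15.1% and 12.4% of all genes. Without the AngII array of replicate 1 there were 9 lower and 2 higher, against 18.8% and 13.9% of all genes. In replicate 2, 0 genes were higher (7.29% of all genes) and Ifi35, Psmb8 and Psmb9 were lower (13.6%, against 6.92%). In replicate 3, 8 were higher (36.4%, against 23.7%) and B2m alone was lower (4.55%, against 13.3%). In replicate 4, 6 were higher (27.3%, against 19.2%) and Ddx58 and Irf2 were lower (9.09%, against 18.8%). With another background correction (normexp) 12 genes were lower, with Bst2 in place of Tap2, and 4 were higher. The log2 differences of several genes were then over 1.5 times smaller, at 0.97 for B2m, -0.50 for Oasl1, -0.74 for Irf7, -0.49 for Isg15, -1.07 for Tap1 and 0.27 for Rtp4. The 4 contrasts, each of 1 number against the rest, share arrays and are not independent of one another.

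Irf7, the factor that amplifies type I interferon production, had the clearest gap among the regulators. Its level was -2.45, -1.22, -0.20 and -0.59 in AngII replicates 1 to 4 and -2.20, -0.43, -0.73 and -0.40 in AngII+CsA replicates 1 to 4. Both replicate 1 arrays lay below the other 6, by a mean of 3.31-fold (-1.73 ± 0.24 log2, SE; limma, adjusted p = 0.002515). Irf2, a factor that competes with Irf1 for the same element, went the other way. Its levels were 1.62, 1.07, 1.02 and 0.74 with AngII and 1.64, 1.26, 1.18 and 0.91 with AngII+CsA, and replicate 1 was 1.52-fold higher than the others (limma, adjusted p = 0.006636). Irf3, which is present before infection and activated by phosphorylation, lay between 4.97 and 5.78 on all arrays. It did not pass for replicate 1, and it was 0.54 log2 higher in replicate 3 than in the others (limma, adjusted p = 0.02966).

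Among antiviral effectors, Isg15, a ubiquitin-like protein whose upstream stretch is printed above, lay at -1.45, -0.39, 0.44 and -0.10 with AngII and at -0.90, -0.16, 0.20 and -0.39 with AngII+CsA. Both replicate 1 arrays were below the other 6, with a mean difference of 2.15-fold (limma, adjusted p = 0.004961). The file places the Isg15 probe on chr17:44534906-44534965 in build mm7, while RefSeq places the gene on chromosome 4 in GRCm38.p6. The identity of this probe therefore rests on the name and the RefSeq transcript given for it, both of Isg15, and not on that position. Oasl1, which restrains Irf7 translation, lay at -5.16, -2.36, -1.87 and -1.04 with AngII and at -4.24, -2.39, -2.11 and -2.00 with AngII+CsA. It was not well above background on either replicate 1 array and was above it on the other 6, which makes the others at least 2.65-fold brighter (limma, adjusted p = 0.001578). That bound sets the mean of the bright arrays against the higher of the dim probe's own signal and the lowest signal marked above background on each dim array. Oasl1 passed the filter through those 6 arrays, so its call is partly a result of the filter. Of all probes on the array, 147 (0.357%) were above background on every array except those of replicate 1.

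Ifi35, an interferon-induced protein of uncertain function, lay at 1.00, 0.89, 2.11 and 1.88 with AngII and at 0.94, 1.14, 2.08 and 1.80 with AngII+CsA. Here replicates 1 and 2 were both low, by 0.68 and 0.62 log2 against the others (limma, adjusted p = 0.006175 and 0.03427). Rtp4 stood higher in replicate 1, at -1.49, -2.47, -2.40 and -2.59 with AngII and -1.79, -2.48, -2.46 and -2.25 with AngII+CsA. The difference was 1.75-fold (limma, adjusted p = 0.006426), and both replicate 1 arrays were above the other 6. Gbp2, a guanylate-binding protein that acts against intracellular pathogens, lay at 0.19, 0.76, 1.02 and 0.59 with AngII and at 0.67, 1.02, 0.99 and 0.88 with AngII+CsA. Its replicate 1 mean was 1.36-fold below the others (limma, adjusted p = 0.0349), with the AngII+CsA array of replicate 1 inside the range of the rest. The F test over all numbers missed the threshold for Gbp2 (limma, adjusted p = 0.074), and its replicate 1 call held under 11 of 21 alternatives.

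The Ifitm genes, which code for membrane proteins that block virus entry, did not move as one. Ifitm1 lay at 3.36, 3.72, 3.86 and 4.37 with AngII and at 3.43, 3.89, 3.60 and 4.37 with AngII+CsA, lowest in replicate 1 and highest in replicate 4. Ifitm3 lay at 2.68, 2.70, 2.71 and 3.61 with AngII and at 2.20, 2.58, 2.55 and 3.78 with AngII+CsA. Its replicate 4 stood 1.13 log2 above the others (limma, adjusted p = 0.005274). Ifitm2 lay at 8.57, 7.88, 8.37 and 7.94 with AngII and at 8.43, 7.83, 8.36 and 7.95 with AngII+CsA, so replicate 1 was the highest, 1.36-fold above the others (limma, adjusted p = 0.01857). A second probe named Ifitm2 was also highest in replicate 1, at 7.45 and 7.12, against 6.28 to 7.04 on the other arrays. The file places it at chr7:43008745-43008804 in build mm7, far from the first at chr7:137372276-137372335. Its identity therefore rests on the name and the RefSeq transcript given for it, and not on that position. The Ifitm genes have close paralogs, and the assignment of a probe to one of them is that of the array design.

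Among antigen-processing genes, the peptide transporter Tap1 had the widest spread of the genes with a probe above background on all arrays. Its levels were -0.96, 0.13, 1.79 and 1.54 with AngII and -0.09, 0.74, 1.57 and 1.47 with AngII+CsA. Both replicate 1 arrays were below the other 6 and both replicate 2 arrays below those of replicates 3 and 4, a range of 4.61-fold over the number means. Replicate 1 was 3.32-fold below the others (limma, adjusted p = 0.002358). Tap2, its partner, lay at -2.07, -1.27, 0.35 and -0.24 with AngII and at -1.47, 0.37, -0.28 and -1.04 with AngII+CsA. Its replicate 1 difference was 2.67-fold (limma, adjusted p = 0.04234), while the F test over all numbers missed the threshold (adjusted p = 0.1004). The replicate 1 call for Tap2 was lost with normexp and with quantile normalization (limma, adjusted p = 0.08817 and 0.06048).

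Psmb9, whose gene starts next to that of Tap1, lay at 4.21, 4.04, 5.09 and 4.60 with AngII and at 4.06, 4.15, 5.00 and 4.59 with AngII+CsA. Psmb8 lay at 2.53, 2.37, 3.61 and 3.11 with AngII and at 2.39, 2.53, 3.52 and 3.12 with AngII+CsA. For both immunoproteasome genes replicates 1 and 2 lay below replicates 3 and 4 without overlap, and replicate number held 98.1% and 98.5% of the variance in that order. The second Psmb8 probe had the same order, with 1.19 to 1.68 in replicates 1 and 2 and 2.28 to 2.33 in replicates 3 and 4. Psmb10, the remaining subunit, lay at 4.53, 3.73, 4.34 and 3.86 with AngII and at 3.98, 3.73, 4.32 and 3.88 with AngII+CsA, and it passed no test. Tapbp lay at 0.94, 1.06, 1.51 and 1.72 with AngII and at 0.75, 1.21, 1.25 and 1.71 with AngII+CsA, lowest in replicate 1 and highest in replicate 4. Its replicate 1 mean was 1.48-fold below the others (limma, adjusted p = 0.01353).

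**Figure D2:**
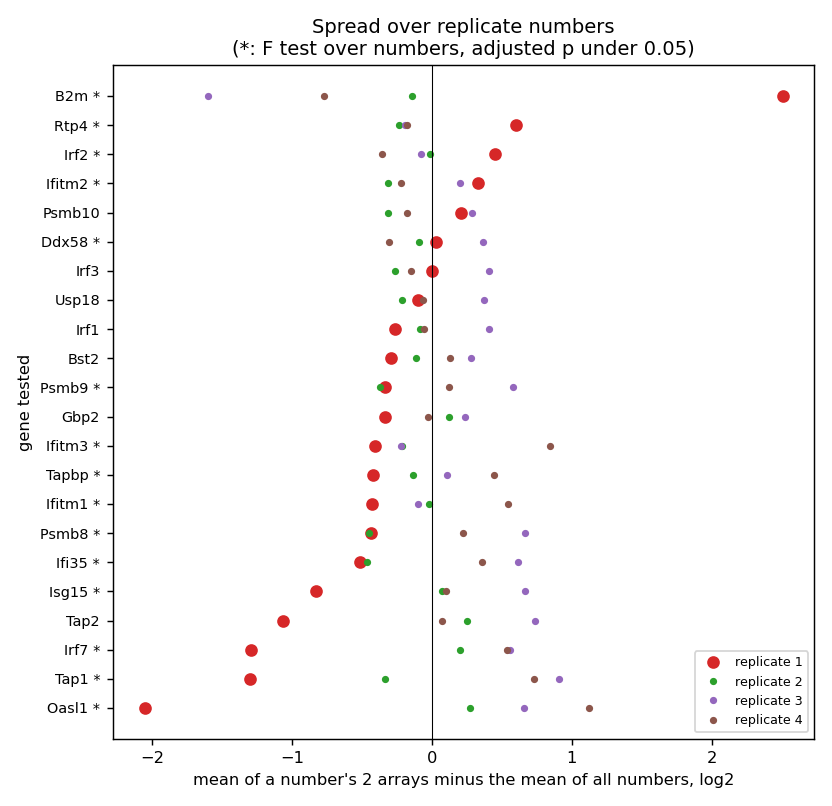
Points give, for each tested gene, the mean of the 2 arrays of a replicate number minus the mean over all numbers, in log2; an asterisk marks genes past the F test over numbers. Replicate 1 was the lowest number for 12 of 22 genes (54.5%, against 36.3% of all genes) and the highest for 4 (18.2%, against 27%). These 12 are not the 12 called lower by the test: they include Bst2 and Irf1, while Psmb8 and Psmb9 were lowest in replicate 2. For B2m and Oasl1 the points include arrays where the probe was not well above background, so their distances are not measured sizes.

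The light chain gene B2m and the factor gene Irf1 showed different patterns on different probes. The first 30 of the 60 bases of each probe are printed to show that they are different sequences, and no base is marked.
B2m A_51_P129012: ttgaacctgcttaattacaaatccagtttc
B2m A_51_P129006: ttcaaaaattggaaatatcctagatagctg
Irf1 A_52_P175685: gccgagacactaagagcaaaaccaagagga
Irf1 A_51_P146103: ctcttgactatctattagaaacgccaccta
In build mm7 the files place the B2m probes at chr2:121893518-121893577 and chr2:121893642-121893698, and the Irf1 probes at chr11:53730701-53730846 and chr11:53733970-53734029. Exon and transcript positions are not given, since no mm7 gene models were used. The GC content of the 60 bases was 31.7% and 26.7% for the B2m probes and 51.7% and 43.3% for the Irf1 probes, in the order printed.

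The B2m probe A_51_P129012, which represented the gene, lay at -0.39, -2.67, -5.11 and -3.31 in AngII replicates 1 to 4 and at -0.11, -3.13, -3.61 and -3.75 in AngII+CsA replicates 1 to 4. It was above background in replicates 1 and 2 only, and it was at least 3.23-fold brighter there than in replicates 3 and 4. The probe A_51_P129006, which is spotted 10 times, lay at -0.90 and -1.03 in replicate 1 and between -5.94 and -5.11 on the other 6 arrays. That is a difference of at least 5.88-fold, with the bound computed as for Oasl1. The remaining B2m probe was above background on 0 arrays. B2m thus passed the filter through replicates 1 and 2, where it was bright, and its call by replicate number is partly a result of the filter. Probes at background in replicates 3 and 4 do not show that B2m was silent there. The class I heavy chain genes H2-K1, H2-D1, H2-Q1, H2-Q7 and H2-T23 were above background on all 8 arrays and lower in replicate 1 (limma, adjusted p under 0.05). H2-M3 was above it on 0 arrays. The reason for the contrast with B2m was not tested.

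For Irf1, the probe A_52_P175685 was above background on all 8 arrays, at -1.96, -1.57, -0.80 and -1.35 with AngII and at -1.25, -1.28, -1.07 and -1.45 with AngII+CsA. It did not pass for replicate number (F test, limma, adjusted p = 0.1664). The other probe was above background in replicate 1 alone, at -2.17 and -2.42, and lay between -5.66 and -4.66 on the other arrays, at least 2.33-fold lower. So 1 probe of each gene was above background on both replicate 1 arrays and nowhere else. Over the array this held for 414 probes (1.01%), and 389 probes (0.945%) were above background in replicate 2 alone.

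**Figure D3:**
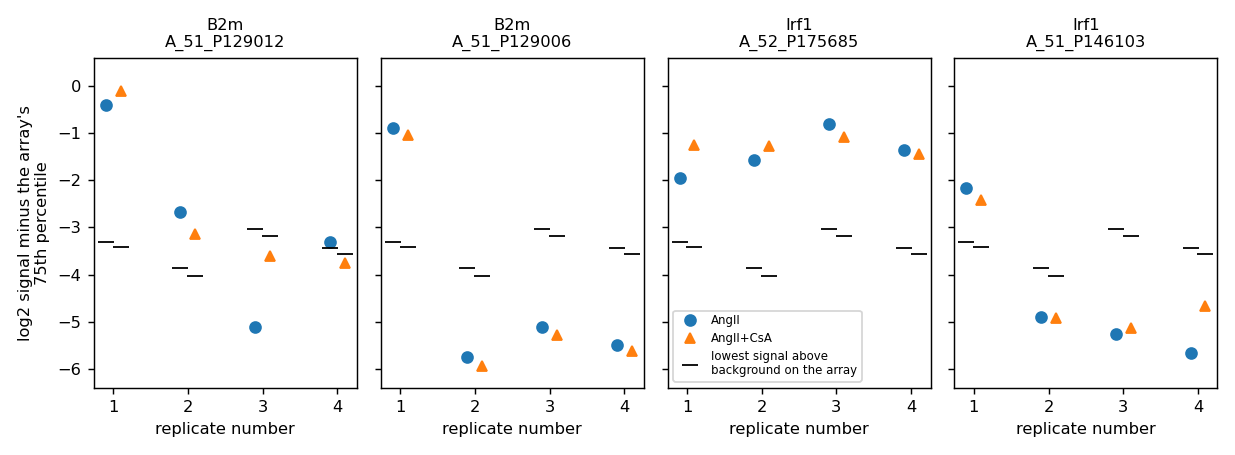
Each panel gives 1 probe of B2m or Irf1, with log2 signal on the vertical axis and replicate number on the horizontal; circles are AngII, triangles AngII+CsA, and black dashes the lowest signal marked above background on that array. The probes A_51_P129006 and A_51_P146103 rise above the dashes in replicate 1 only, while A_52_P175685 stays above them on all 8 arrays.

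Cell-type markers also moved with replicate number. Over all genes 29.7% were lower and 21.5% higher in replicate 1. Of 10 smooth muscle markers 9 were tested, and in replicate 1 there were 6 lower and 1 higher, with a median difference of -1.84 log2. The higher one was Cald1 (1.00 log2; limma, adjusted p = 0.008289). Myh11, smooth muscle myosin, did not pass (0.18 log2; limma, adjusted p = 0.4187). Acta2, smooth muscle actin, had number means of 5.59, 7.19, 8.75 and 8.49 for replicates 1 to 4, and the log2 of the markers' summed signal was 9.92 to 9.99 in replicate 1 and 10.43 to 11.42 in the others. A summed level adds the brightest probe of every marker on a list, also probes at background, so the brightest markers mostly set it. In replicate 1, Tpm2 alone lay at 9.47 (AngII) and 9.53 (AngII+CsA), and Cd14 of the macrophage list at 2.51 and 2.59. The sums are therefore not amounts of a cell type. Of 6 adventitial fibroblast markers 3 were tested. Pdgfra and Lum were higher in replicate 1, while Pi16 did not pass (-0.27 log2, limma, adjusted p = 0.1665). Dpt was above background on 2 arrays and Cd34 on 0 arrays. The summed level was 6.79 to 7.07 in replicate 1 and 5.29 to 5.94 elsewhere. Pdgfra alone lay at 6.79 (AngII) and 6.44 (AngII+CsA) in replicate 1. Of 9 macrophage markers 3 were tested and 2 were lower in replicate 1, with a summed level of 2.90 to 3.01 there and 2.75 to 3.58 elsewhere; Adgre1, Fcgr1, Mrc1 and Itgam were above background on 0 arrays. Lyz2 of the same list was not tested and went the other way, with its brighter probe at -1.12 and -1.24 in replicate 1, where alone it was above background, and between -5.83 and -4.74 elsewhere. Ly6a of the fibroblast list had the same pattern, at -1.33 and -1.42 in replicate 1 and between -5.81 and -3.84 elsewhere. Of 9 endothelial markers 5 were tested, 1 higher and 1 lower in replicate 1, with a summed level of -0.23 to -0.02 there and -0.37 to 0.33 elsewhere; Pecam1, Cdh5 and Tie1 were above background on 0 arrays. Of 7 T cell markers 4 were tested and all 4 were lower in replicate 1, with a summed level of 0.34 to 0.43 there and 0.43 to 1.41 elsewhere; Cd8a was above background on 0 arrays. Of 4 markers of B cells and plasmacytoid dendritic cells 2 were tested and 0 passed for replicate 1, with a summed level of -0.46 to 0.21 there and -0.51 to 0.58 elsewhere. The part of these differences in the spread of the interferon genes was not tested, and in bulk RNA fewer cells of a type and less RNA per cell cannot be told apart.

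Cyclosporin A changed 0 of the 22 genes by the test. Without a block by replicate number, 0 genes on the array passed (0% of 14864), with adjusted p = 0.9999 as the smallest value by limma. At an unadjusted p under 0.05 there were 0 of the 22 higher (0.0336% of all genes) and 0 lower (0.249%). With the block, 4 genes passed (0.0269%), none of them listed, and the smallest adjusted p among the 22 was 0.8856. At an unadjusted p under 0.05 with the block, 1 gene was higher (4.55%, against 1.46% of all genes) and 0 were lower (3.86% of all genes). The median difference was -0.01 log2 for the 22 genes and -0.03 for all genes, 10 of 22 were higher (45.5%, against 43.4%), and 21 of 22 lay within 0.5 log2 of 0 (95.5%, against 97.3%). The median over the 22 genes within each pair was -0.02, 0.17, -0.11 and -0.01 for replicates 1 to 4. The 2 groups overlapped for all 22 genes, while 0.363% of all genes had groups that did not overlap. In simulated data 200 of 14864 genes were changed by 1 or 2 log2, with normal noise. Of those changed by 1 log2, 92.2% were recovered for this comparison with the block and 0.6% without it. In the measured data Cnn1 did not pass with the block, at -1.71 log2 and lower in every pair (limma, adjusted p = 0.4554). The simulated share therefore does not measure the power for the 22 genes.

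Usp18, the protease that removes Isg15 and damps the interferon receptor, had the largest difference of the 22. It lay at -1.51, -1.64, -0.84 and -1.56 with AngII and at -0.92, -1.02, -0.64 and -0.81 with AngII+CsA. All 4 pairs were higher with cyclosporin, by 0.60, 0.62, 0.20 and 0.75 log2, and the groups overlapped through AngII replicate 3. The mean difference was 1.45-fold (0.54 ± 0.25 log2, SE), which did not pass (limma, adjusted p = 0.9999 without the block and 0.8856 with it), although it was the 1 gene under 0.05 before adjustment with the block. After normexp the difference was 0.20 log2 (limma, adjusted p = 0.9614). Irf2 was also higher in 4 of 4 pairs, by 0.02 to 0.18 log2, so 2 of 22 genes did so (9.09%, against 4.78% of all genes).

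By the size of p, Gbp2 and Irf1 followed among the differences above 0, at 0.25 and 0.16 log2. The differences below 0 with the smallest p were those of Ddx58 (-0.15), Psmb10 (-0.13) and Bst2 (-0.12). Ddx58, the RNA sensor RIG-I, had 4 probes, 3 of them above background on 0 arrays. By the other, Ddx58 lay at -1.80, -2.06, -1.58 and -2.31 with AngII and at -2.16, -2.14, -1.71 and -2.33 with AngII+CsA, lower in 4 of 4 pairs by 0.02 to 0.36. It was the only one of the 22 to do so (4.55%, against 10.2% of all genes), and it did not pass (limma, adjusted p = 0.9999, and 0.9109 with the block). Bst2 (tetherin), which holds budding viruses at the cell surface, lay at 0.47, 0.47, 1.18 and 0.95 with AngII and at 0.36, 0.72, 0.79 and 0.71 with AngII+CsA, higher in 1 pair and lower in the other 3.

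The class I genes that were well measured held narrow intervals around 0. With the block, the 95% interval of the difference was -0.28 to 0.21 for Psmb9, -0.27 to 0.24 for Psmb8 and -0.35 to 0.20 for Tapbp. For Ifi35 it was -0.25 to 0.28, and for Isg15 it was -0.34 to 0.47. Tap1 and Tap2 left more room, at -0.19 to 0.79 and -0.77 to 1.17, and both had positive differences in replicates 1 and 2 and negative ones in replicates 3 and 4. For Irf7 the interval was -0.33 to 0.68 and for B2m it was -0.58 to 1.01, with 4 of the 8 B2m values not well above background.

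**Figure D4:**
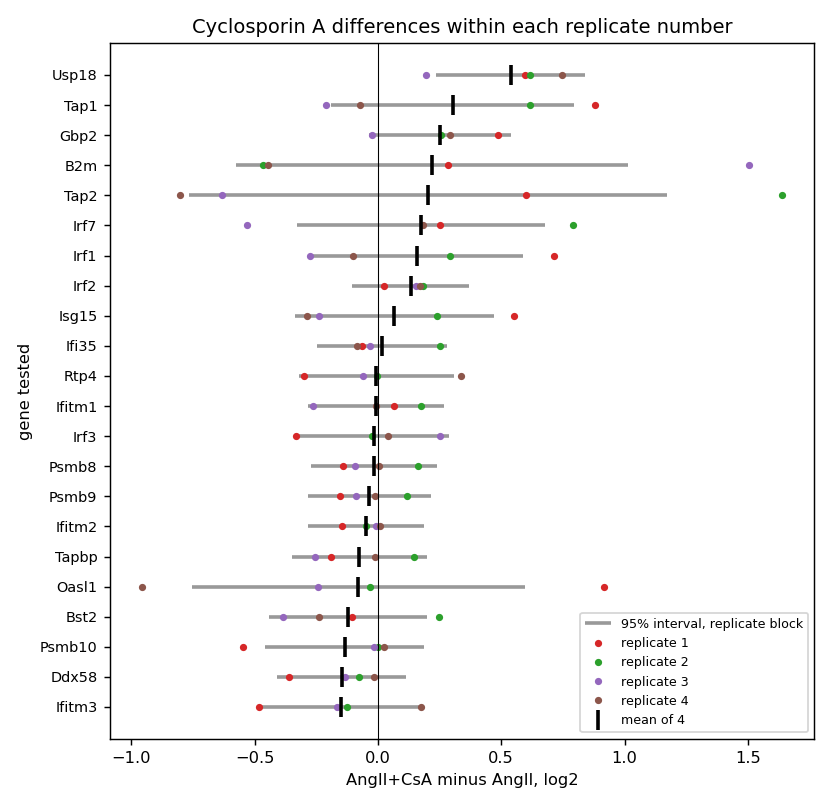
Coloured points give the log2 difference between AngII+CsA and AngII within each replicate number for the 22 tested genes, black ticks their means and grey bars the 95% interval with a block by replicate number. Usp18 is the one gene whose interval (0.24 to 0.84) lies away from 0, before any adjustment for the number of genes.

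Other genes of the pathway were taken from lists of ligands, receptors, sensors and further targets. Of 5 interferon ligand genes with a probe, Ifnb1, Ifng, Ifna2 and Ifna4 were above background on 0 arrays and Ifna1 on 7. No gene of any list passed for cyclosporin, with or without the block: 0 of 1 ligand, 0 of 11 receptors, kinases and their regulators, 0 of 6 sensing genes, 0 of 15 other induced genes, 0 of 10 class I genes and 0 of 4 class II genes. The smallest p without the block above 0 were those of the receptor kinase gene Jak2 (0.42 log2) and Trim25, a ligase that activates RIG-I (0.28 log2). Below 0 they were those of the interferon-induced GTPase genes Tgtp1 (-0.50 log2) and Igtp (-0.39 log2).

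Across replicate numbers, the lists are given one by one. In replicate 1, 7 of the 11 genes of the receptor list were higher and 0 lower, with a median difference of 0.41 log2. These were the receptor chain gene Ifngr2, the kinase genes Jak1 and Jak2, the transcription factor gene Stat3 and the genes of the negative regulators Socs3, Pias1 and Ptpn2. Of 10 class I genes 6 were lower and 2 higher, with a median of -0.50, and H2-K1, a classical class I heavy chain, had number means of 7.03, 7.24, 8.31 and 7.73. Of 15 other induced genes 4 were higher and 3 lower, of 6 sensing genes 1 was higher and 2 lower, of 4 class II genes 0 were higher and 2 lower, and the 1 ligand did not pass. Against 21.5% higher and 29.7% lower among all genes, these lists are described by their counts only, and no difference between lists was tested.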

How the data were processed

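The 8 arrays were 1-colour Agilent arrays of design 014868, read with Agilent Feature Extraction 9.5.3.1, per the file headers, with probe positions in build mm7. The deposited files give each spot's intensity on a linear scale as the processed signal (background-subtracted by that software), the mean and background signals, and marks for outlier, saturated and spots above background. A log2 table deposited by the authors holds values of the same arrays and has a median of 3.01 in each column; its ranks match the scanner values (Spearman rho of at least 0.9999). Its sorted columns differ by at most 0.0887 between arrays, as after quantile normalization, but the method is not given in the sources used here and its constant stays unknown. Here log2 of the processed signal minus each array's 75th percentile was used, outlier spots were dropped, no spot was saturated, and spots of a probe were averaged. Probes above background on at least 4 of 8 arrays were kept whatever their group, and the probe with the highest mean stood for its gene.

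Two-sided tests used lmFit and eBayes of limma 3.58.1 (R 4.3.3), with p-values adjusted by Benjamini-Hochberg over all 14864 genes and called under 0.05. The pairing was checked: same-numbered arrays deviated from their group means together (correlations of 0.70 to 0.86, against -0.79 to 0.29 for all other pairs), which was read as pairing by number, on shared slides. The residual degrees of freedom were 6 without and 3 with the block. The fits were tested on simulated data. The labels call the cultures independent.

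The genes and lists were chosen with earlier results of these data known. The rule named all listed genes, with every array for those past any test, for the 3 differences of each sign with the smallest p, for the 4 widest ranges over replicate numbers and for B2m, Stat2, Irf7, Irf9, Tap1 and Usp18. Of the other pathway genes it named those past the threshold for cyclosporin or else the 2 of each sign with the smallest p. The ligand genes, the class I heavy chain genes and the receptor-list genes past the replicate 1 test were named after their values were seen. So were Lyz2, Ly6a and the other marker examples. Alternatives covered background correction, scaling, the filter, outlier spots, the choice of probe, the authors' table, the variance model, the block and leaving out arrays.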

Additional observations from a re-analysis of the deposited data

Results flagged for a closer look

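In 4 of the 44 groups of 4 arrays (22 genes in 2 groups), 1 array stood apart from the other 3 by Dixon's criterion, which chance passes in about 1 of 20 groups of independent arrays. The share over all genes is not given, and the 2 groups share replicate numbers. The 44 groups are therefore not independent, and the count is not read as an excess. The Ifitm3 level in AngII replicate 4 was 3.61, against 2.68 to 2.71 in the other 3. Rtp4 in AngII replicate 1 was at -1.49, against -2.59 to -2.40. Usp18 in AngII replicate 3 was at -0.84, against -1.64 to -1.51. B2m in AngII+CsA replicate 1 was at -0.11, against -3.75 to -3.13. For all 4 genes the AngII and AngII+CsA arrays of that number were each the highest of their groups.

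Probes of listed genes outside the tests had signal above background on some arrays. The B2m probe A_51_P129006 reached -0.90 and the Irf1 probe A_51_P146103 reached -2.17, each above background on both replicate 1 arrays. Stat2 reached -2.61 on 1 of the 2 AngII+CsA arrays where it was above background. The Ifih1 probe A_52_P121468 was above background on 1 array, AngII+CsA replicate 2, and its highest level was -3.29, on the AngII+CsA array of replicate 3. A second Irf3 probe, A_52_P609770, was above background on 3 arrays and reached -2.50.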

How the results depend on the processing

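The count of listed genes that passed for cyclosporin was 0 under each of the 26 alternatives run. For all genes it was 0 without a block under each alternative, 4 with the replicate block, 0 with the block and any 1 replicate number left out, 6 with replicate number as a random block and 3 with the replicate block and normexp. The replicate block changed no call among the listed genes. Their median difference ranged from -0.13 (without AngII replicate 1) to 0.13 (without AngII replicate 3) when arrays were left out. For replicate number, 10115 genes passed in all and 15396 with no filter on dim probes, where 28760 genes were tested. When arrays were left out, between 5786 and 11207 genes passed, with 6526 without replicate 4, 6326 without AngII replicate 2 and 6006 without AngII+CsA replicate 4. Among the listed genes, 9 to 18 passed under those settings, and 14 to 18 under the others. The share of all genes that passed was 54.9% with quantile normalization, 54.7% with the authors' table and 55.8% with normexp.

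Irf7, Isg15, Tap1 and Ifi35 were lower in replicate 1 under each of 21 alternatives. B2m and Oasl1 passed the filter only through the arrays where they were bright, so their calls are no sign of stability. With normexp the sizes shrank, to 0.97 for B2m, -0.50 for Oasl1, -0.74 for Irf7, -0.49 for Isg15, -1.07 for Tap1 and 0.27 for Rtp4. Tap2 lost its call with normexp (limma, adjusted p = 0.08817), and it was called under 12 of 21 alternatives. Gbp2 was called under 11 of 21. The cause of these changes was not tested. Signals near background limit B2m, Oasl1 and Stat2.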

Other observations

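Genes outside the list shared the pattern of the B2m and Irf1 probes that were above background in replicate 1 alone. They were chosen after their values were seen. Over the array 414 probes (1.01%) had this pattern, and 389 (0.945%) were above background in replicate 2 alone, so it is not particular to this pathway. Ifngr1, a chain of the interferon gamma receptor, lay at -0.59 and -0.98 in replicate 1 and between -5.87 and -5.13 on the other 6 arrays. Ifi27, an interferon-induced gene, lay at 0.70 and 0.27 in replicate 1 and between -5.48 and -4.12 elsewhere. It is given by its brighter probe, and its other probe was above background on the AngII+CsA array of replicate 3 alone. Cxcl10, an interferon-induced chemokine gene, lay at -2.99 and -3.08 in replicate 1 and between -5.83 and -4.98 elsewhere. None of these genes met the filter of 4 arrays, so none was tested.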
